A study of Rattus norvegicus with 8 samples.

Results

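The insulin-like growth factor (IGF) binding protein family consists of secreted proteins, encoded by Igfbp1 to Igfbp7, that bind IGF-1 and IGF-2 in blood and tissue. Its members were taken as every non-control probe whose gene name in the array files equals one of these 7 symbols, which gave 16 of the 46883 probes and 7 of the 25512 gene names. Liver RNA came from 4 high-fat samples, of male Sprague Dawley rats (an outbred laboratory strain) given a 60% high fat diet for 12 weeks, and from 4 control samples, of rats of the same sex and strain given a normal diet for 12 weeks. The labels give a weight of 180 to 200 g in both groups without saying when it was taken, and give no age. The study's stated subject is diet-induced insulin resistance. Nothing in the labels ties each sample to an animal of its own, so a p-value here speaks of the variation among these 8 samples, which may be technical.

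IGF binding proteins prolong the life of IGFs in the circulation and limit or assist their access to the IGF-1 receptor. The liver makes most circulating IGF-1. Hepatocytes make IGFBP-1, whose gene is repressed by insulin and raised by fasting and glucocorticoids, and IGFBP-2, which also rises in fasting. In rat liver, IGFBP-3 is made mainly by non-parenchymal cells and carries IGF-1 in a complex with the acid-labile subunit, the product of Igfals. IGFBP-4, IGFBP-5 and IGFBP-6 act mostly in tissues, IGFBP-6 with a preference for IGF-2, and IGFBP-7 is a distant relative with weak affinity for IGFs.

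Igfbp1 and Igfbp3 are neighbours on rat chromosome 14, and Igfbp2 and Igfbp5 are neighbours on chromosome 9. In the files' rn4 coordinates the nearest probes of the first pair lie 4.51 kb apart and those of the second 6.18 kb apart. The files place 9 of the 16 probes on rn4 and 7 on no position, among them the main probes of Igfbp1, Igfbp5, Igfbp6 and Igfbp7, and probes were not assigned to exons or introns here. RefSeq promoters on GRCr8 were found for all 7 members. The promoters of Igfbp1 and Igfbp3 are shown because these adjacent genes had log2 changes of opposite sign and because that of Igfbp1 holds the insulin response element described for this gene. Each line gives the 250 bases before the transcription start, 5′ to 3′ on the gene's strand, and capitals mark the arms CAAAACAA and TTATTTTG of that element.
Igfbp1, chr14:86261027-86261276, plus strand: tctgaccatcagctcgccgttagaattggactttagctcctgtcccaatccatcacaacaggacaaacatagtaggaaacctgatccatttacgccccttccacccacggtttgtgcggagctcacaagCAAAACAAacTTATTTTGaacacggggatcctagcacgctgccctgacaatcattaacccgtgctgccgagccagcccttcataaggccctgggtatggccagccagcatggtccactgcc
Igfbp3, chr14:86277945-86278194, minus strand: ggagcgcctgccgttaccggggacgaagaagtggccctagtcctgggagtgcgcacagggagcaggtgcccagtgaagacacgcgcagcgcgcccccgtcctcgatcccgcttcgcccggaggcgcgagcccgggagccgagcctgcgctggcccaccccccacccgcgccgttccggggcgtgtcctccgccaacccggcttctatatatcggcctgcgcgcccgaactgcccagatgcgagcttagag
Searched on both strands, CAAAACAA stood from 121 to 114 bases and TTATTTTG from 111 to 104 bases before the start of Igfbp1, and neither was in the same window of the other 6 members. Of 33469 promoters of this length, 1.94% held the first and 1.81% the second, and 1 promoter, that of Igfbp1, held the whole element CAAAACAAACTTATTTTG. These are matches of letters, chosen from what is known of Igfbp1. In the whole element the bases between the arms were taken from the Igfbp1 promoter itself, so its match there was certain. GC content was 52.8% in the Igfbp1 window and 71.6% in that of Igfbp3, with a median of 51.2% over all promoters.

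The share of probes that the scanner software marked as well above background was 56.4% to 71.4% on high-fat arrays, against 50.4% to 71.9% on control arrays, and replicate 1 had the lowest share in each diet. Correlations across tested probes were 0.971 to 0.982 between high-fat arrays, 0.97 to 0.985 between control arrays and 0.96 to 0.98 between the diets. The number of arrays limits the precision. All values below are normalized log2 intensities, where 0 is the level of the 75th percentile of probes detected on all arrays, and a log2 change is high-fat minus control. Probes differ in affinity, so levels are compared between diets and not between genes. The summed level of 8 hepatocyte markers, led by abundant transcripts such as Alb, was 8.79 to 9.17 on high-fat arrays, against 8.8 to 9.22 on control arrays. Of the 8, 0 passed the threshold given below and 1 had an unadjusted p under 0.05 by limma, beside 15.6% of all tested genes. That 1 was Cps1 of the urea cycle, with a log2 change of 0.98 (adjusted p = 0.2).

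Of the 16, 14 met the condition for a test, well above background on at least 4 arrays, with at least 1 for each member, and 10 met it on all 8. No member passed the threshold of an adjusted p under 0.05 over all 31546 tested probes by limma, in either direction. Of all tested probes 0.907% passed, and of 18595 tested genes 0.877%, with 0.35% higher and 0.527% lower on the high-fat diet. The smallest adjusted p among member probes was 0.14. At an unadjusted p under 0.05 there were 3 of 14 member probes, 1 of Igfbp2 and 2 of Igfbp3, beside 15.4% of all tested probes. The main probe, the brightest of each gene, had a higher mean on the high-fat diet in 4 members (Igfbp3, Igfbp4, Igfbp6 and Igfbp7) and a lower mean in 3 (Igfbp1, Igfbp2 and Igfbp5), with a median log2 change of 0.13 over the 7 and 0 over all tested genes. In whole liver, fewer cells of a type and less RNA per cell cannot be told apart.

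**Figure D1:**
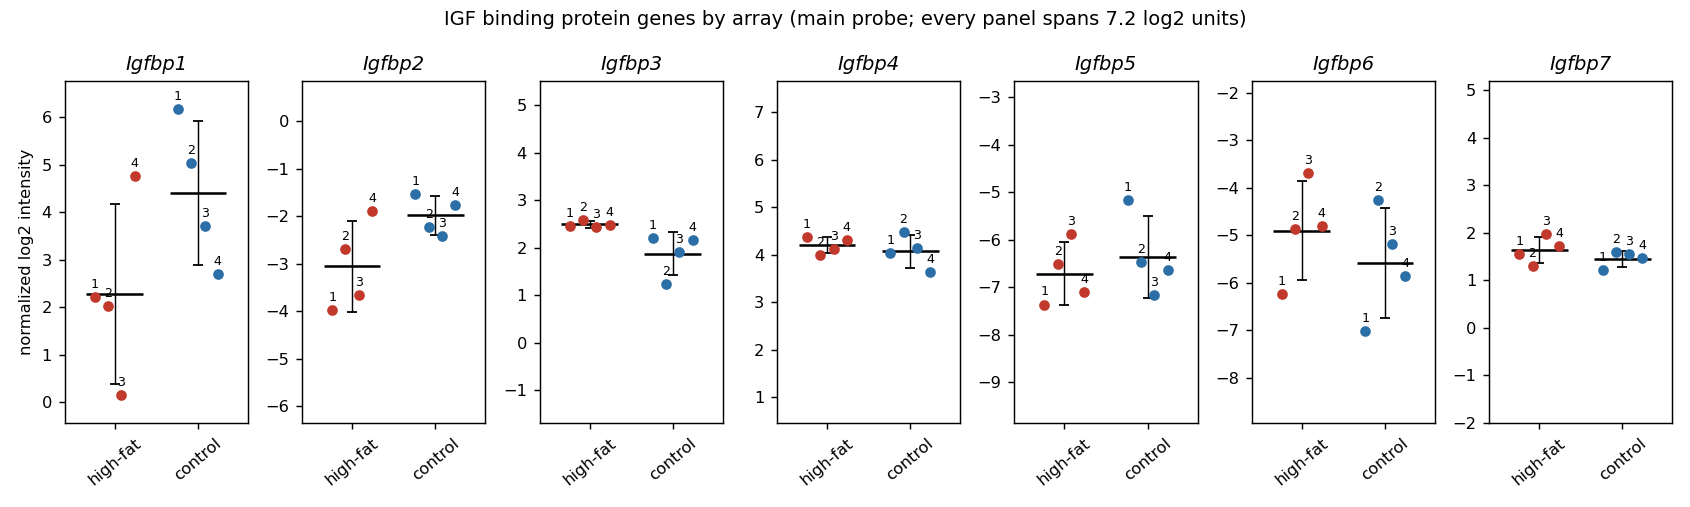
Normalized log2 intensity of the main probe of each IGF binding protein gene (points, numbered by replicate), with the mean (line) and SD (bar) of 4 high-fat arrays at the left of each panel and 4 control arrays at the right. Igfbp1 spans 6.02 log2 units over the 8 arrays, and for Igfbp3 all 4 high-fat arrays lie above every control array.

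Igfbp1 had the widest spread of the family. Its main probe read 2.22, 2.02, 0.15 and 4.76 on high-fat replicates 1 to 4, against 6.18, 5.03, 3.72 and 2.71 on control replicates 1 to 4. High-fat replicates 1 to 3 lay below every control array, and high-fat replicate 4 lay above control replicates 3 and 4, so the groups overlapped. The means were 2.29 ± 1.89 on the high-fat diet and 4.41 ± 1.52 on the control diet (SD, n = 4 each). The log2 change was -2.12, with a 95% interval from -4.45 to 0.21 (adjusted p = 0.37 by limma; exact two-sided permutation p = 0.143, where 4 arrays against 4 cannot go below 0.0286). Without high-fat replicate 4 the change was -2.94 (adjusted p = 0.24), and without high-fat replicate 3 it was -1.41 (adjusted p = 0.61).

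The other Igfbp1 probe, on chromosome 14 from 87954736 to 87954795 of rn4, gave the same order of arrays within each diet. It read -1.69, -1.81, -2.92 and 0.98 on high-fat replicates 1 to 4, against 2.49, 1.28, -0.4 and -1.27 on control replicates 1 to 4, with a log2 change of -1.89 (95% interval -4.15 to 0.38; adjusted p = 0.42 by limma). The probes share no stretch over 5 bases, and their values over the 8 arrays correlated at r = 0.99. Both probes thus gave the same wide spread from separate sequences.

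Among all tested genes, the between-array spread of Igfbp1 was near the top. The SD within a diet, pooled over both diets, was 1.71 log2 units for Igfbp1, and 99.5% of genes had a smaller one. Its median over all genes was 0.28. Igfbp6, Igfbp5 and Igfbp2 had 1.1, 0.76 and 0.74, and Igfbp3, Igfbp4 and Igfbp7 had 0.32, 0.27 and 0.23, near the median. The lowest and highest Igfbp1 arrays differed 65.1-fold, and within the high-fat diet alone the range was 4.61 log2 units.

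**Figure D2:**
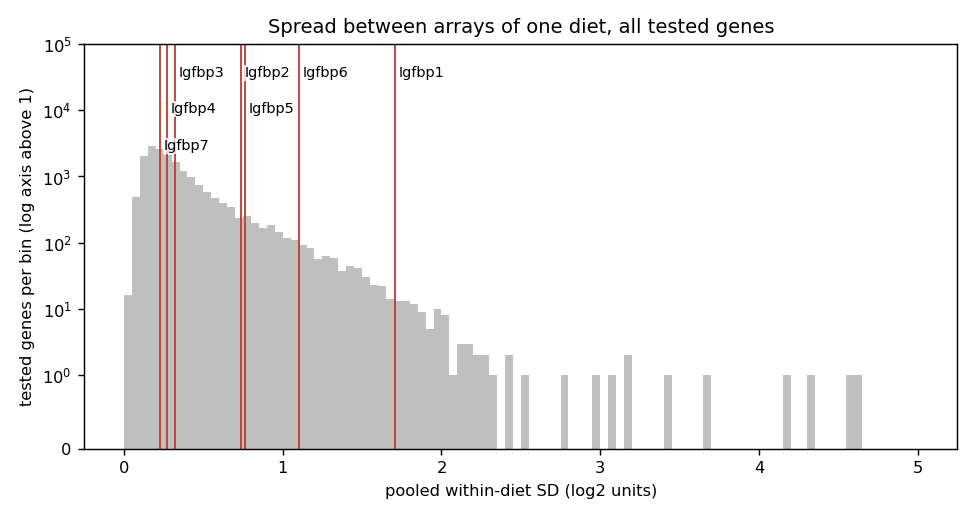
Number of tested genes by SD between arrays of one diet, pooled over the 2 diets, in log2 units (grey bars; log axis above 1), with the 7 members marked by red lines. Igfbp1, at 1.71, lies beyond 99.5% of genes, while Igfbp3, Igfbp4 and Igfbp7 lie near the median of 0.28.

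The arrays shared 1 slide, whose 2 rows each held 2 high-fat and 2 control arrays, replicates 1 and 2 in the first row and 3 and 4 in the second. The log2 change of Igfbp1 by its main probe was -3.48 in the first row and -0.76 in the second. By the other probe it was -3.64 and -0.14. For the main probe the difference between rows, second minus first, was 2.73 with a 95% interval from -1.82 to 7.28 (adjusted p = 0.77 by limma, a test chosen after the values were seen). Control replicate 1, where Igfbp1 was highest, was also the array with the fewest probes well above background. Without this array and high-fat replicate 1, the change was -1.51 by the main probe (adjusted p = 0.59) and -1.12 by the other.

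Igfbp2 had a lower mean on the high-fat diet by all 3 of its probes. The main probe, on chromosome 9 from 71994131 to 71994190, read -3.98, -2.68, -3.66 and -1.88 on high-fat replicates 1 to 4, against -1.52, -2.23, -2.42 and -1.75 on control replicates 1 to 4. High-fat replicates 1 to 3 lay below every control array, and high-fat replicate 4 lay among the controls, as it did for Igfbp1. The log2 change was -1.07 (95% interval -2.09 to -0.05; adjusted p = 0.3 by limma; exact two-sided permutation p = 0.114). The other 2 probes gave -1.04 (adjusted p = 0.39) and -0.89 (adjusted p = 0.5), and each pair of probes correlated at 0.95 to 0.97 over the 8 arrays. High-fat replicate 4 lay above every control array by the first of these 2. By the second, only 2 high-fat arrays lay below every control array, and its change ranged from -1.38 to -0.37 over its 20 alternatives. Without high-fat replicate 4 the main change was -1.46 (adjusted p = 0.17), and without the 2 arrays with the fewest probes well above background it was -0.61 (adjusted p = 0.57). Within the slide rows it was -1.46 and -0.69.

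The main probes of Igfbp1 and Igfbp2 correlated over the 8 arrays, with Pearson r = 0.76 (exact permutation p = 0.028, adjusted p = 0.4 over the 21 pairs of members) and Spearman rho = 0.76 (exact permutation p = 0.037, adjusted p = 0.39). Without the 2 arrays farthest from the median of Igfbp1, r was 0.53 over 6 arrays, and for deviations from the diet means it was 0.62. No pair of members passed the adjustment. The other pair with an unadjusted p under 0.05 was Igfbp6 with Igfbp7, at r = 0.73 (exact permutation p = 0.038, adjusted p = 0.4) and rho = 0.76 (exact permutation p = 0.037, adjusted p = 0.39). Without the 2 arrays farthest from the median of Igfbp6, r was 0.15 over 6 arrays, and for deviations from the diet means it was 0.69 over all 8. The neighbours Igfbp1 and Igfbp3 had r = -0.48 (exact permutation p = 0.24, adjusted p = 0.76), and rho = -0.48 (exact permutation p = 0.24, adjusted p = 0.8).

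Other hepatocyte genes linked to repression by insulin were set beside Igfbp1. Their own response to insulin was not tested. Of 11 tested, 0 passed the threshold by limma and 1 had an unadjusted p under 0.05, beside 15.6% of all tested genes. The median log2 change was 0.12, with 8 positive and 3 negative. Cited2, a transcriptional co-regulator with the smallest p of the list, had 0.5 (adjusted p = 0.24) and Foxo3 had 0.59 (adjusted p = 0.53). Pck1, the enzyme of the committed step of gluconeogenesis, read 5.29, 5.15, 4.91 and 5.3 on high-fat replicates 1 to 4, against 5.59, 4.41, 3.54 and 5.01 on control replicates 1 to 4, with a log2 change of 0.53 (95% interval -0.36 to 1.41; adjusted p = 0.58). G6pc, which releases glucose from glucose 6-phosphate, read 4.6, 1.09, 2.29 and 3.73 on high-fat replicates 1 to 4, against 5.09, 3.78, 3.35 and 3.15 on control replicates 1 to 4, with -0.92 (95% interval -2.63 to 0.8; adjusted p = 0.63). For G6pc the order of the 4 control arrays was that of Igfbp1, and that of the high-fat arrays was not.

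**Figure D3:**
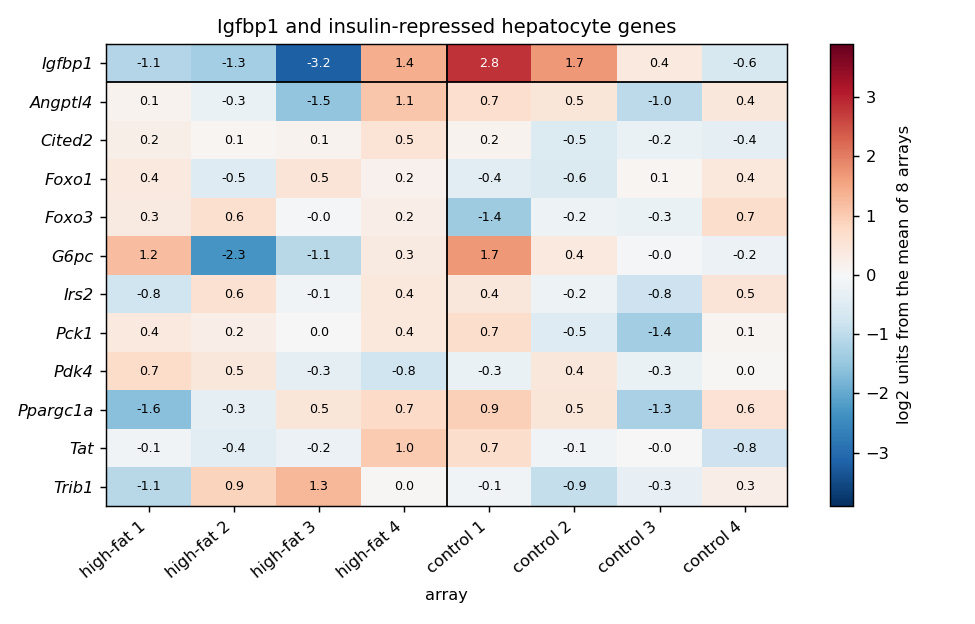
Deviation of each array from the gene's mean over 8 arrays, in log2 units, for Igfbp1 (top row) and 11 hepatocyte genes linked to repression by insulin, with 4 high-fat arrays at the left of the line and 4 control arrays at the right. Igfbp1 has the widest range of the genes shown.

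Among 13001 tested genes with a plain symbol, those whose values over the 8 arrays correlated most with Igfbp1 were Psmd13 (r = 0.97), Cops3 and Zbtb42 (both 0.956), and Lmnb1 and Abcb10 (both 0.953). Psmd13 encodes a subunit of the proteasome, Cops3 one of the COP9 signalosome, Lmnb1 a nuclear lamin and Abcb10 a mitochondrial transporter. Their ranges were narrower than that of Igfbp1, as for Psmd13, which read 1.69, 1.76, 1.52 and 1.88 on high-fat replicates 1 to 4, against 2.05, 1.99, 1.87 and 1.81 on control replicates 1 to 4. None of the 5 passed the threshold, with adjusted p from 0.41 to 0.59 by limma. These correlations are the highest of many and rest on 8 arrays that share diet and slide.

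Igfbp3 was the one member whose diets did not overlap. Its main probe, on chromosome 14 from 87959244 to 87959303, read 2.45, 2.59, 2.44 and 2.48 on high-fat replicates 1 to 4, against 2.2, 1.23, 1.92 and 2.16 on control replicates 1 to 4. Every high-fat array lay above every control array, and the high-fat arrays spanned only 0.15 log2 units. The means were 2.49 ± 0.07 on the high-fat diet and 1.87 ± 0.45 on the control diet (SD, n = 4 each), a log2 change of 0.62 or 1.53-fold (95% interval 0.12 to 1.11; adjusted p = 0.23 by limma; exact two-sided permutation p = 0.0286, the smallest possible). The other probe read 0.28, 0.58, 0.56 and 0.63 on high-fat replicates 1 to 4, against -0.19, -1.42, -0.43 and -0.1 on control replicates 1 to 4, again with no overlap, and gave 1.05 (95% interval 0.4 to 1.69; adjusted p = 0.14; exact two-sided permutation p = 0.0286). The diets did not overlap, with the high-fat arrays higher, for 2 of 14 member probes and 1 of 7 members, beside 5.17% of all tested probes and 4.87% of all tested genes. The high-fat arrays were lower without overlap for 0 member probes, beside 5.47% of all tested probes and 6.27% of all tested genes.

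Control replicate 2 was the lowest array for Igfbp3 by both probes. Without it the log2 changes were 0.4 by the main probe (adjusted p = 0.29) and 0.75 by the other, the lowest values over 21 alternatives for each probe. Over those alternatives the adjusted p ranged from 0.15 to 0.45 for the main probe and from 0.081 to 0.3 for the other. Within the slide rows the main probe gave 0.81 and 0.42 and the other probe 1.23 and 0.86. The genes most like Igfbp3 over the 8 arrays were Tpbg (r = 0.971) and Nap1l5 (r = 0.96), both also lowest on control replicate 2, with log2 changes of 0.58 (adjusted p = 0.29) and 1.22 (adjusted p = 0.13).

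Markers of other cells that whole liver can hold were set beside Igfbp3. The summed level of 9 sinusoidal endothelial markers, led by bright ones such as Kdr and Fcgr2b, was 4.5, 4.23, 3.93 and 4.03 on high-fat replicates 1 to 4, against 4.34, 3.48, 4.17 and 4.12 on control replicates 1 to 4. Control replicate 2 was the lowest array here too. It was also the lowest control array for the Kupffer cell and macrophage markers below. For the stellate cell and fibroblast markers it read 2.69, close to the 2.68 of control replicate 1. Of the 9 endothelial markers, 0 passed the threshold by limma and 3 had an unadjusted p under 0.05, beside 15.6% of all tested genes. The median log2 change of the 9 was 0.05. Of the 3, Lyve1, a hyaluronan receptor, had 0.96 (adjusted p = 0.071) and Stab2, a scavenger receptor, 0.6 (adjusted p = 0.16), both higher without overlap, and Clec4g, a lectin, had -0.58 (adjusted p = 0.21). Among all tested genes, 4.87% were higher without overlap. Over the list 5 markers had positive and 4 negative changes, the other negative ones being Pecam1, Tek and Cdh5, from -0.37 to -0.18.

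The summed level of 9 Kupffer cell and macrophage markers was led by bright ones such as Clec4f. It was 3.91 to 4.6 on high-fat arrays, against 4.63 to 5.06 on control arrays, without overlap. Of the 9, 8 had negative changes and Cd14 had 0.21, with a median log2 change of -0.26. By limma 0 passed and 2 had an unadjusted p under 0.05, beside 15.6% of all tested genes. The 2 were the scavenger receptor Marco with -2.38 (adjusted p = 0.14) and the lectin Clec4f with -0.6 (adjusted p = 0.18). For 13 tested stellate cell and fibroblast markers the summed level was 2.49 to 3.07 on high-fat arrays, against 2.41 to 2.69 on control arrays. Of the 13, 1 rose, beside 0.35% of all tested genes, and 7 had positive and 6 negative changes. The 1 was Reln, a secreted matrix protein (log2 change 1.34, adjusted p = 0.015 by limma). At an unadjusted p under 0.05 by limma there were 5, beside 15.6% of all tested genes. The 5 were Reln, Rgs5, with 0.61 (adjusted p = 0.29), Vim, Des and Acta2. Vim and Des, which encode intermediate filaments, and Acta2, smooth muscle actin, had -0.78, -0.7 and -0.52 with the high-fat arrays lower without overlap (adjusted p = 0.075, 0.13 and 0.19). Lower without overlap were thus 3 of the 13, beside 6.27% of all tested genes, and 1 was higher, beside 4.87%.

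The summed level of 6 tested cholangiocyte markers was -0.68 to -0.22 on high-fat arrays, against -0.17 to 0.55 on control arrays, and all 6 had negative changes. Of the 6, 0 passed the threshold by limma and 2 had an unadjusted p under 0.05, beside 15.6% of all tested genes. The 2 were Epcam with -0.62 (adjusted p = 0.15) and Spp1 with -1.64 (adjusted p = 0.19). The summed level of 4 erythroid markers was 6.17 to 6.84 on high-fat arrays, against 4.81 to 6.17 on control arrays, with a median log2 change of 1.09. Of the 4, 0 passed the threshold by limma and 3 had an unadjusted p under 0.05, beside the same 15.6%. Of 5 adipocyte markers on the array, the 2 tested had a summed level of 1.76 to 2.56 on high-fat arrays, against 2.04 to 3.38 on control arrays. Lep was well above background on no array, and every other marker of these lists found on the array was so on at least 1. The part of other cell types in the values of Igfbp3 and the other members was not tested.

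**Figure D4:**
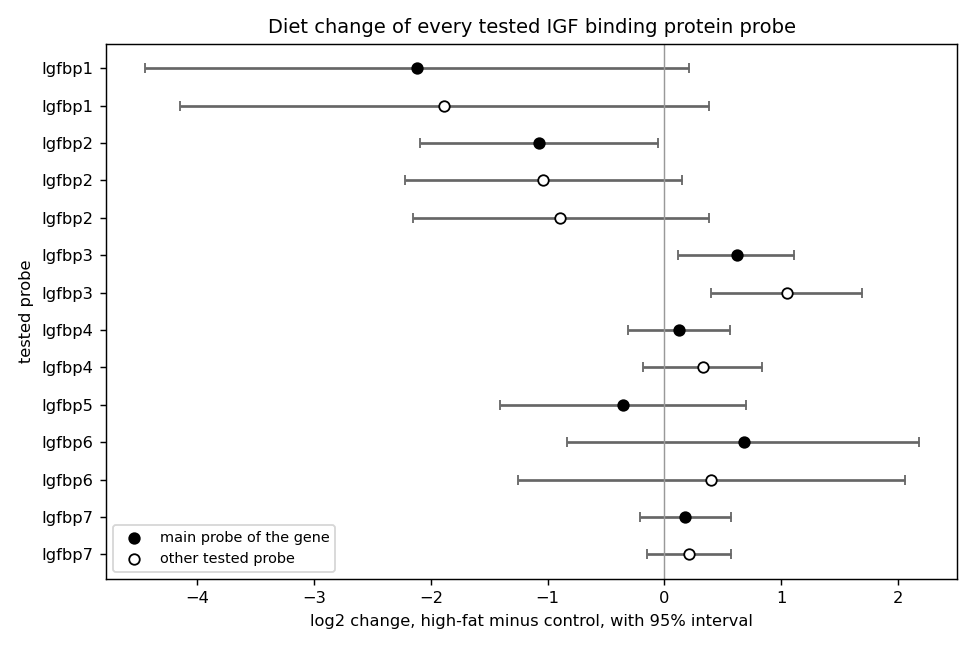
Log2 change, high-fat minus control, with its 95% interval for the 14 tested probes of the family (filled circles, main probe of each gene; open circles, other probes). The intervals of both Igfbp3 probes and of the main Igfbp2 probe leave out 0 before adjustment, and no probe passed after adjustment over 31546 probes.

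The partners of IGFBP-3 in its circulating complex had positive log2 changes as well. Igf1 read 6.34, 6.17, 6.08 and 6.17 on high-fat replicates 1 to 4, against 5.91, 5.66, 5.83 and 5.81 on control replicates 1 to 4, with no overlap and a log2 change of 0.39 (95% interval 0.11 to 0.66; adjusted p = 0.18 by limma). Igfals read 5.07, 4.93, 4.99 and 4.42 on high-fat replicates 1 to 4, against 3.74, 3.62, 4.5 and 4.44 on control replicates 1 to 4, with an overlap through high-fat replicate 4 and a change of 0.78 (95% interval 0.21 to 1.35; adjusted p = 0.2). Ghr, the growth hormone receptor, on which hepatic Igf1 and Igfals depend, read 1.82, 1.08, 1.75 and 1.46 on high-fat replicates 1 to 4, against 0.95, 0.75, 1.08 and 0.92 on control replicates 1 to 4, with a change of 0.61 (95% interval 0.19 to 1.02; adjusted p = 0.17). None of these passed the threshold.

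Of all 7 ligands and receptors tested, Igfals included, 0 passed and 3 had an unadjusted p under 0.05 by limma, beside 15.6% of all tested genes. The median log2 change of the 7 was 0.39. Igf2r, which clears IGF-2, had -0.26 without overlap (adjusted p = 0.34), Igf2 0.46 (adjusted p = 0.56), the insulin receptor Insr 0.14 (adjusted p = 0.78) and the IGF-1 receptor Igf1r -0.14 (adjusted p = 0.82). Among 7 genes of growth hormone signalling 0 passed and 1 had an unadjusted p under 0.05 by limma, beside the same 15.6%. Their median log2 change was -0.16, with 3 positive and 4 negative. The 1 was Stat5a, a transcription factor downstream of the growth hormone receptor, with -0.58 (adjusted p = 0.23). Socs2, a feedback inhibitor of the receptor, had 1.38 (95% interval -0.21 to 2.97; adjusted p = 0.4).

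Of 8 tested genes of proteases and regulators of IGF binding proteins, 1 rose, beside 0.35% of all tested genes, and 7 did not pass. At an unadjusted p under 0.05 by limma there were 3, Mmp2, Mmp9 and Adamts1, beside 15.6% of all tested genes. The median log2 change of these 8 was 0.18. Mmp2, a gelatinase that can cleave IGF binding proteins among many substrates, read -2.52, -2.54, -2 and -2.52 on high-fat replicates 1 to 4, against -4.02, -3.9, -4.02 and -3.82 on control replicates 1 to 4, a log2 change of 1.54 (95% interval 1.19 to 1.9; adjusted p = 0.015 by limma). Mmp9, the other gelatinase, had 0.87 (adjusted p = 0.22) and Adamts1 0.52 (adjusted p = 0.25). Stc2, an inhibitor of the IGFBP-4 protease pappalysin, had 0.13 (adjusted p = 0.75), and Stc1, its paralogue, had -0.68 with an interval from -3.14 to 1.77. Of 8 tested genes with an IGFBP-like domain outside the family 0 passed and 2 had an unadjusted p under 0.05, beside 15.6% of all tested genes. The median log2 change of the 8 was 0.02. Of the 2, Wisp2, a matricellular protein, had -0.86 without overlap (adjusted p = 0.12). The other of these 2, Esm1, an endothelial proteoglycan, had 1.95 with overlap (95% interval 0.07 to 3.83; adjusted p = 0.31).

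**Figure D5:**
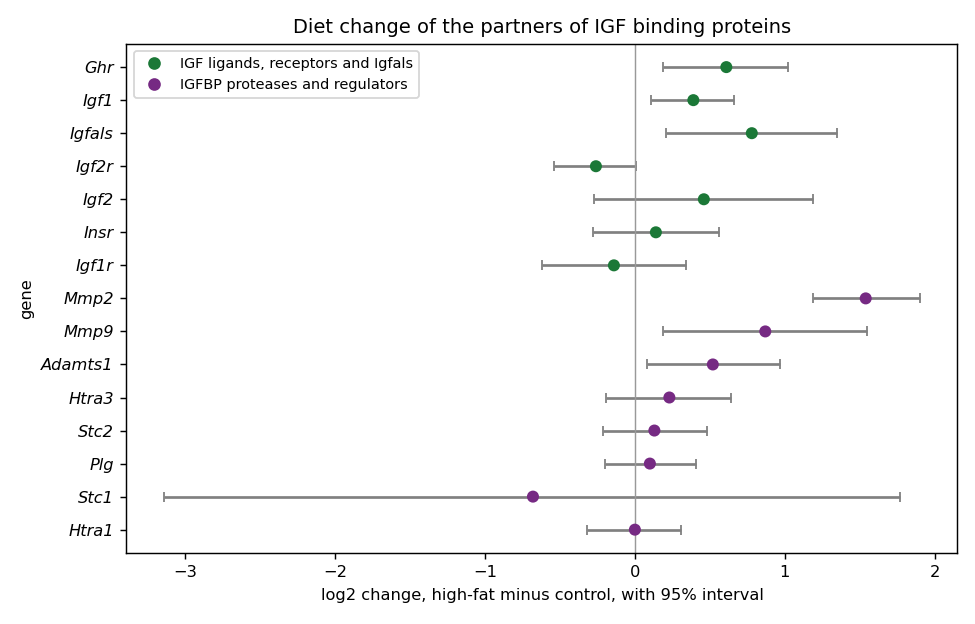
Log2 change, high-fat minus control, with its 95% interval for 7 ligands, receptors and Igfals (green) and 8 proteases and regulators of IGF binding proteins (purple). Mmp2, at 1.54, is the only gene shown that passed the threshold, and Ghr, Igf1, Igfals, Mmp9 and Adamts1 also have intervals above 0 before adjustment.

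Igfbp4, whose product mainly holds IGFs back from their receptor, differed little between the diets. Its main probe, on chromosome 10 from 87834213 to 87834272, read 4.37, 4, 4.12 and 4.3 on high-fat replicates 1 to 4, against 4.03, 4.48, 4.14 and 3.63 on control replicates 1 to 4. The high-fat values lay wholly within the control range, and the log2 change was 0.13 (95% interval -0.31 to 0.56; adjusted p = 0.82 by limma), so a change beyond 1 log2 unit in either direction lay outside the interval. The other probe gave 0.33 (95% interval -0.18 to 0.84; adjusted p = 0.55) and correlated with the main one at only 0.42.

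Igfbp7, known from vessels and stroma, had the narrowest range. Its main probe read 1.56, 1.3, 1.97 and 1.72 on high-fat replicates 1 to 4, against 1.22, 1.59, 1.55 and 1.46 on control replicates 1 to 4, with a log2 change of 0.18 (95% interval -0.21 to 0.57; adjusted p = 0.68 by limma). The other probe, on chromosome 14 from 33069995 to 33070054, gave 0.21 (adjusted p = 0.58), although the pair correlated at only 0.16 over the 8 arrays.

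Igfbp6 and Igfbp5 were dim. The main Igfbp6 probe read -6.24, -4.86, -3.69 and -4.8 on high-fat replicates 1 to 4, against -7.01, -4.26, -5.18 and -5.85 on control replicates 1 to 4, and was well above background on 3 arrays of each diet. The lowest value of each diet fell on replicate 1, the array of that diet with the fewest probes well above background. The log2 change was 0.68 (95% interval -0.83 to 2.18; adjusted p = 0.69 by limma). The other Igfbp6 probe, on chromosome 7 from 140888422 to 140888481, gave 0.4 (adjusted p = 0.85) and shares 35 bases with the first, so their correlation of 0.99 is not that of separate sequences.

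The main Igfbp5 probe read -7.36, -6.51, -5.87 and -7.09 on high-fat replicates 1 to 4, against -5.15, -6.47, -7.17 and -6.63 on control replicates 1 to 4. It was well above background on 3 arrays of each diet, and its log2 change was -0.35 (95% interval -1.41 to 0.7; adjusted p = 0.78 by limma). The sign rested on control replicate 1, without which the change was 0.05 (adjusted p = 0.98). A further Igfbp5 probe, on chromosome 9 from 72000312 to 72000371, was well above background on 1 high-fat and 2 control arrays, and the last, from 72003659 to 72003718, on none of the 8. These 2 were not tested, and no fold is given for them.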

How the data were processed

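RNA of 8 liver samples was measured on 1-colour Agilent arrays. The deposited intensity values are processed signals of Agilent Feature Extraction 10.7.3.1, per the file headers, after background subtraction and spatial detrending, with surrogates for dim spots. A deposited value table by the authors is on a log2 scale, and its scaling is not given in the sources used here. Each column correlated at 0.999 or above with that array's log2 processed signal minus its 75th percentile over all probes. Its column medians, for replicates 1 to 4, were -3.14, -3.2, -3.16 and -3.2 for high-fat arrays and -3.1, -3.21, -3.14 and -3.17 for control arrays. It was not centred per probe, and it served as an alternative.

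No non-control spot was saturated, and neither control spots nor outlier-flagged spots entered. From each array's log2 processed signal, its 75th percentile over the 48% of probes detected on all 8 arrays (well above background) was subtracted. Replicate spots were averaged per probe. A probe was tested if well above background on 4 or more arrays, which left 31546, and limma 3.58.1 (lmFit, eBayes; R 4.3.3) compared the diets. P-values were adjusted by Benjamini-Hochberg across all these probes, with 0.05 as threshold. For each gene the brightest probe on average was used as its main probe. Alternatives changed the background correction, scaling, filter on dim probes, gene summary, variance model, array weights and blocks, or left out arrays.

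The IGF binding protein members and the gene lists were chosen with earlier results of these data known. The rule for named genes took all members with every probe, the IGF ligands and receptors, up to 4 genes of each other list with the smallest p, and the genes most correlated with each member. The text gives a part of these. Correlations of deviations from the group means between arrays of the same replicate number were -0.117, 0.264, 0.231 and 0.0126. These values cannot settle whether the numbers pair the samples, and the reported fit treated the samples as unpaired. Promoter sequences are from RefSeq on GRCr8, and probes are placed as in the files, whose build is rn4.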

Additional observations from a re-analysis of the deposited data

Results flagged for a closer look

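The values of the 16 member probes and the share of probes well above background gave 34 sets of 4 arrays, each of 1 diet. In 1 set a single array stood apart, where chance gives about 1 in 20. Control replicate 2 read 0.12 by the dimmer Igfbp4 probe, against -0.49 to -0.44 on the other control arrays. It was also the highest control array by the brighter Igfbp4 probe, at 4.48.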

How the results depend on the processing

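No member probe passed the threshold in any of the 21 alternatives fitted per probe, and no member did when a gene was the mean of its probes. Igfbp1, Igfbp2, Igfbp3, Igfbp6 and Igfbp7 kept the sign of their gene-level log2 change in every alternative run, within -2.94 to -1.41, -1.46 to -0.61, 0.4 to 0.83, 0.2 to 1.12 and 0.07 to 0.29. Leaving out 1 array at a time gave -0.02 to 0.26 for Igfbp4, where the negative value came without control replicate 4, and -0.63 to 0.05 for Igfbp5, where the positive value came without control replicate 1. Without the 2 arrays with the fewest probes well above background Igfbp5 had 0.26. The other Igfbp6 probe had -0.09 without control replicate 1. The cause of these changes of sign was not tested. The number of genes past the threshold, 163 in the reported fit, was 308 after normexp, 327 with an intensity trend, 330 over genes well above background on all 8 arrays, 5 without the filter on dim probes, 98 with slide row as a block, 14 without the 2 dimmest arrays and 16 to 89 without 1 array. With the replicate number as a block 1 gene passed, and the main probes of the members had adjusted p of 0.34 or more. The other Igfbp3 probe had at most 0.3 in every alternative, this one included. The labels do not say whether those numbers pair samples. Igfbp5 and Igfbp6 were too dim for the filter on all 8 arrays, so that alternative gave them no value, and dim signal limits what can be said of both.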
